A study of Mus musculus with 8 samples.

Results

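Chaperones fold new and damaged proteins, and the unfolded protein response (UPR) raises the folding capacity of the endoplasmic reticulum (ER) when unfolded protein gathers there. The 40 mouse genes described here are a named list of heat shock proteins, ER chaperones and disulfide isomerases, ER-associated degradation genes and the sensors and factors of the UPR and of the ATF4 arm. They were picked by name, out of 47937 genes in the count table, and all 40 have a row in it. Of these, 36 passed a filter on low counts and were tested, and the 4 that did not were Hspa1a, Hspb1, Asns and Chac1. RNA from sorted CD8SP TCRb+MHC-I high thymocytes, the mature CD8 single-positive cells of the thymus, was sequenced in 8 libraries, 4 per group. Ndrg3ctrl mice were Ndrg3 +/fl;Lck-cre+ and Ndrg3TKO mice were Ndrg3 fl/fl;Lck-cre+, all aged 6 to 7 weeks by the labels. Both groups therefore carry the Cre transgene, driven by the proximal Lck promoter and active from early T lineage thymocytes on, and the controls already carry 1 floxed allele. The comparison asks what loss of the other Ndrg3 allele does in these cells, and no mice without Cre or without a floxed allele were in it.

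In a resting cell, the HSP70 and HSP90 machines of the cytosol work with J proteins and exchange factors, and heat shock factor Hsf1 induces many of them under stress through heat shock elements. In the ER, 3 sensors span the membrane. Ern1 (IRE1) splices Xbp1 mRNA, Atf6 is cut to release a transcription factor, and Eif2ak3 (PERK) phosphorylates the initiation factor eIF2 alpha, which lowers translation and favours that of Atf4. Xbp1 and Atf6 act on ER stress response elements (ERSE) of chaperone genes, and ATF4 induces Ddit3 (CHOP), Trib3, Asns and Chac1. T cells draw on this machinery when they begin to make large amounts of receptor and cytokine.

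Ndrg3 itself was compared first as a check of the labels. Its normalized counts (scaled for library size) were 2294, 2359, 2349 and 2342 in Ndrg3ctrl and 1460, 1402, 1537 and 1601 in Ndrg3TKO. The groups did not overlap, and Ndrg3 (chr2:156927345-156992056, minus strand, GRCm38) fell by 0.64 on the log2 scale (SE 0.0526, edgeR adjusted p = 1.036e-05). The floxed allele loses 1 exon, so reads from the rest of the gene can remain after deletion. Total counts ran from 21126698 in Ndrg3ctrl replicate 2 to 32668081 in Ndrg3TKO replicate 2, so a floor of 3 counts corresponded to 0.0918 to 0.142 CPM (counts normalized to the total of the library), counting error only.

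Several libraries stood apart before any member was compared. Y-linked transcripts reached 340.5 CPM in Ndrg3ctrl replicate 2, 379.4 in Ndrg3TKO replicate 2 and 416.3 in Ndrg3TKO replicate 3, against at most 0.0752 in the other 5 libraries, so the groups differ in their share of such libraries. The labels give no sex. Ndrg3ctrl replicate 2 is also the shallowest library. Mitochondrial transcripts made up 0.636% of counts in Ndrg3ctrl replicate 4 and between 0.803% and 0.820% in the other controls, against 0.571% to 0.713% in Ndrg3TKO.

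Marker genes matched the sorted population. The 10 CD8SP markers summed to between 6604 and 7353 CPM per library, led by Cd8a, which had a mean of 39568 ± 554 normalized counts in Ndrg3ctrl and 39110 ± 971 in Ndrg3TKO (SD, n = 4). None of the 10 passed the threshold, and the lowest log2 fold changes among them were those of the maturation genes Ccr7 (-0.26, adjusted p = 0.135) and Klf2 (-0.26, adjusted p = 0.130). Markers of other cells were scarce. Summed levels reached at most 0.632 CPM for B cells, 0.731 for plasma cells, 1.70 for myeloid or dendritic cells, 1.86 for CD4 T cells and 2.94 for thymic epithelium, while both erythroid genes were at 0 in every library. The myeloid or dendritic sum was 1.09 to 1.70 CPM in Ndrg3ctrl and 0.505 to 1.03 in Ndrg3TKO. Its gene H2-Aa had groups that did not overlap (log2 fold change -0.61, adjusted p = 0.445). The 2 gamma delta T cell markers, mainly Trdc, summed to between 10.3 and 14.4 CPM. The 4 double-positive thymocyte markers, mainly Dntt, summed to 16.5 to 24.7 CPM in Ndrg3ctrl and 20.3 to 28.3 in Ndrg3TKO. Dntt, the terminal transferase of immature thymocytes, had 542, 422, 428 and 410 normalized counts in Ndrg3ctrl and 736, 554, 609 and 563 in Ndrg3TKO. Its groups did not overlap, and its log2 fold change of 0.45 (SE 0.110) had an adjusted p of 0.0783 in edgeR and 0.0156 in DESeq2. Rag1, which is also high in immature thymocytes, was at -0.46 (SE 0.550, adjusted p = 0.823). The NK pair summed to 0.113 to 0.615 CPM in Ndrg3ctrl and 1.44 to 2.07 in Ndrg3TKO, all of it in Klrb1c, which rose (log2 fold change 2.62, adjusted p = 0.00149), with Ncr1 at 0 in all 8 libraries. In bulk RNA, fewer cells of a type and less RNA per cell cannot be told apart, and the part of these few transcripts in the member results was not tested.

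Of the 36 tested members, 1 passed the threshold, Eif2ak3 (PERK), which rose 1.21-fold in Ndrg3TKO. Its normalized counts were 2430, 2103, 2343 and 2098 in Ndrg3ctrl and 2850, 2562, 2787 and 2639 in Ndrg3TKO. Every Ndrg3TKO library lay above every Ndrg3ctrl library. The log2 fold change was 0.27 (SE 0.0601, 95% interval 0.14 to 0.40, edgeR adjusted p = 0.0452), and the 2-sided exact permutation test over 70 splits gave p = 0.0286, the smallest it can give. The call lies close to the threshold of 0.05. It was lost when library totals replaced TMM scaling (adjusted p = 0.0581) and without 6 of the 8 libraries in turn, those being Ndrg3ctrl replicate 2 (0.109), 3 (0.0762) and 4 (0.122) and Ndrg3TKO replicate 1 (0.151), 3 (0.148) and 4 (0.0861), while the log2 fold change stayed between 0.24 and 0.31.

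Across all 14633 tested genes, 1.15% passed the same threshold, and 0.793% were higher in Ndrg3TKO, so 1 of 36 members is close to the background count. An unadjusted p under 0.05 was reached by 3 of the 36 tested members, where 10.9% of all tested genes reached it. Groups did not overlap for 1 member, again Eif2ak3, against 7.04% of all tested genes (3.44% higher in Ndrg3TKO and 3.59% lower). DESeq2, which called 1.93% of the genes it gave an adjusted p, called the same single member, with an adjusted p of 0.00884. With the replicate number as a block, 5 members were called, where 5.47% of all tested genes were. A shared number was not taken as a pairing in the main test, since same-numbered libraries did not all deviate together. The 95% interval of the fold change lay within 1.5-fold in either direction for 33 of the 36 members, which bounds the size of the changes that went uncalled.

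**Figure D1:**
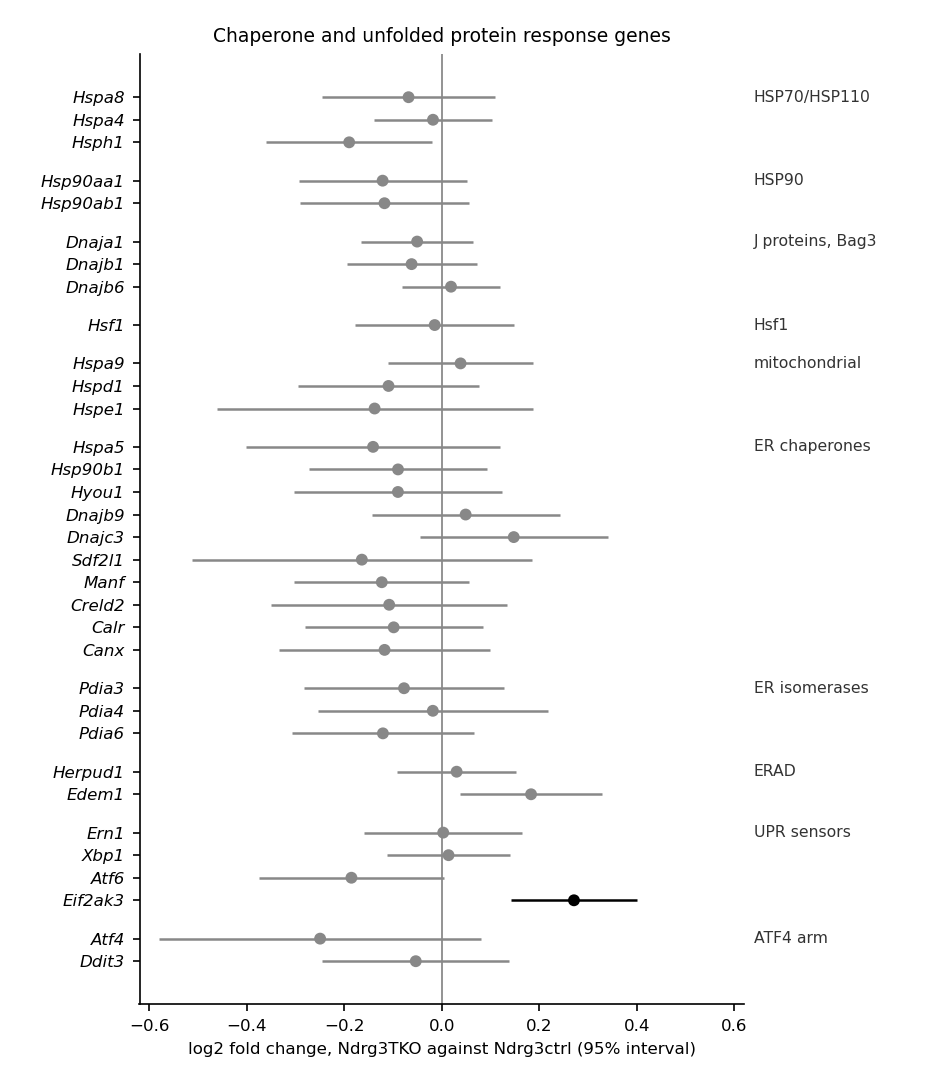
Log2 fold change of Ndrg3TKO against Ndrg3ctrl (x axis) for 33 of the 36 tested members, grouped by role, with points for the edgeR estimates and bars for 95% intervals (n = 4 libraries per group). Eif2ak3, in black, is the 1 member past the threshold, and Hspa1b, Bag3 and Trib3 are left out because their intervals run past 1.5-fold.

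Eif2ak3 spans chr6:70844515-70905245 on the plus strand (GRCm38), and its start site in GENCODE M21 follows directly on the 250 bases shown here, taken from the RefSeq promoter table (GRCm38.p6, chr6:70844265-70844514, plus strand), since it is the 1 member past the threshold. All letters are in lower case because no searched motif was found in its promoter window.
Eif2ak3: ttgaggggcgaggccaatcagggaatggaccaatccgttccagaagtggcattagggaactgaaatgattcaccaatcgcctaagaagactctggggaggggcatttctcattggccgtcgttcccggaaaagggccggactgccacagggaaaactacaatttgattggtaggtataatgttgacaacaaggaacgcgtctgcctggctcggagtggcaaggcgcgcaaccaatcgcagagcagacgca
An antisense gene, Gm43292, shares 485 exonic bases with it, or 8.05% of its exons. Gm43292 had at most 2 counts in any library, and whether strand was used in counting is not given in the sources used here.

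The genes of the other 2 ER sensors did not pass the threshold. Ern1, the kinase and nuclease that splices Xbp1, had 442, 457, 480 and 485 normalized counts in Ndrg3ctrl and 446, 495, 471 and 455 in Ndrg3TKO. Those groups overlapped over most of their range (log2 fold change 0.0030, SE 0.0758, adjusted p = 0.993). Xbp1, the factor made from the spliced mRNA, had a mean of 1012 ± 27.96 in Ndrg3ctrl and 1021 ± 50.6 in Ndrg3TKO (SD, n = 4; log2 fold change 0.014, adjusted p = 0.958), and gene counts cannot tell its spliced from its unspliced form. Atf6 had 500, 530, 487 and 460 normalized counts in Ndrg3ctrl and 461, 383, 477 and 418 in Ndrg3TKO. Its groups overlapped, and the log2 fold change of -0.19 (SE 0.0883, adjusted p = 0.468) did not pass the threshold. Per length, Eif2ak3 was the most abundant sensor, at 42.8 ± 3.74 TPM, a scale that divides counts by exonic length, in Ndrg3ctrl and 52.9 ± 4.10 in Ndrg3TKO. Ern1, at 6.58 ± 0.727 and 6.70 ± 0.2065 TPM, and Atf6, at 6.15 ± 0.114 and 5.54 ± 0.708 TPM, were far lower (SD, n = 4). These 2 neighbours in the order differed by less than the SD of Ern1 in Ndrg3ctrl and by more than either SD in Ndrg3TKO.

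In the ATF4 arm downstream of PERK, no member passed the threshold in the main test, which has no replicate block. Atf4 had 1298, 1896, 1717 and 1847 normalized counts in Ndrg3ctrl and 1093, 1456, 1505 and 1620 in Ndrg3TKO. Replicate 1 was the lowest library of each group, and the groups overlapped (log2 fold change -0.25, SE 0.146, 95% interval -0.58 to 0.081, adjusted p = 0.588). Atf4 was lower in Ndrg3TKO at every replicate number. With that number as a block, Atf4 was called lower (adjusted p = 0.00457 in that fit). Without Ndrg3TKO replicate 1, its lowest library, the log2 fold change of Atf4 was -0.14. Over all libraries left out in turn, it ran from -0.36 to -0.14. Ddit3 (CHOP), a pro-apoptotic factor, had 390, 347, 331 and 407 in Ndrg3ctrl, and 358, 352, 355 and 358 in Ndrg3TKO, all inside the control range (log2 fold change -0.053, adjusted p = 0.877). The log2 fold change of Ddit3 ran from -0.10 to -0.0044 with single libraries left out. Trib3, a pseudokinase induced by CHOP and ATF4, had between 9.53 and 25.5 normalized counts and a log2 fold change of -0.068 with a wide SE of 0.364 (adjusted p = 0.968). Asns, which makes asparagine, had raw counts of 0, 1, 1 and 0 in Ndrg3ctrl and 1, 0, 1 and 7 in Ndrg3TKO. Chac1, which degrades glutathione, had 0, 1, 0 and 0 in Ndrg3ctrl and 0, 1, 0 and 2 in Ndrg3TKO. Both lie at or near the floor of 3 counts in nearly every library, so no difference was detectable at this depth, and Atf4 and Ddit3 were at 82.7 and 24.9 TPM in Ndrg3ctrl in the same cells.

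ER chaperones and isomerases were abundant, and none of the 13 passed the threshold. Hspa5 (BiP), the HSP70 of the ER, had 8044, 9504, 7424 and 6423 normalized counts in Ndrg3ctrl and 6606, 7990, 7594 and 6271 in Ndrg3TKO. The groups overlapped over most of their range (log2 fold change -0.14, SE 0.117, adjusted p = 0.719). Hsp90b1 (GRP94), the HSP90 of the ER, had 5099, 5801, 5087 and 4235 in Ndrg3ctrl and 4488, 5284, 4689 and 4531 in Ndrg3TKO (log2 fold change -0.090, adjusted p = 0.751). The lectin chaperones Calr and Canx, which hold new glycoproteins and are used in MHC-I assembly, had log2 fold changes of -0.099 and -0.12 (adjusted p = 0.726 and 0.720). Pdia3, the isomerase that works with them, was at -0.077 and Pdia4 at -0.018 (adjusted p = 0.822 and 0.973). Negative values were found in 11 of these genes, 8 of the 10 chaperones and co-chaperones and all 3 isomerases, with medians of -0.10 and -0.077. The 2 positive ones were Dnajb9, at 0.049, and Dnajc3 (P58IPK), a J protein known to inhibit PERK, which had 4936, 5771, 4721 and 4350 normalized counts in Ndrg3ctrl and 5692, 5938, 5576 and 4693 in Ndrg3TKO (log2 fold change 0.15, SE 0.0886, adjusted p = 0.586). With the replicate number as a block, Dnajc3 was called higher (adjusted p = 0.0412 in that fit). The remaining ones, Hyou1, Sdf2l1, Manf, Creld2 and Pdia6, lay between -0.16 and -0.090. These small values leaned on single control libraries. Without Ndrg3ctrl replicate 2, the log2 fold change was -0.039 for Hspa5, -0.020 for Hsp90b1, -0.030 for Calr, -0.060 for Canx and 0.23 for Dnajc3. Without Ndrg3ctrl replicate 4, it was -0.23, -0.17, -0.17, -0.21 and 0.090 in the same order.

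These ER genes varied together from library to library, more than between the groups. The median log2 difference of the 13 from each gene's mean over 8 libraries was 0.063, 0.25, 0.060 and -0.22 in Ndrg3ctrl replicates 1 to 4 and -0.10, 0.12, -0.021 and -0.14 in Ndrg3TKO. Ndrg3ctrl replicate 2 was the highest library for 12 of the 13 genes and Ndrg3ctrl replicate 4 the lowest for 9, so both extremes lie within 1 group. Within each group, the libraries with Y-linked transcripts had the highest medians, namely Ndrg3ctrl replicate 2 and Ndrg3TKO replicates 2 and 3. The part of this difference in the library pattern was not tested. Across the 8 libraries, Hspa5 was correlated with Calr (Pearson's r = 0.953, Spearman's rho = 0.952, exact permutation p adjusted over 6 gene pairs 0.00208 and 0.00685) and with Hsp90b1 (r = 0.935, rho = 0.881, exact permutation adjusted p 0.00335 and 0.0217). Without Ndrg3ctrl replicate 2 and Ndrg3TKO replicate 4, the 2 libraries farthest from the median of Hspa5, r was 0.929 and 0.908, and with group means removed 0.948 and 0.929. Libraries with and without Y-linked transcripts number 3 and 5, too few for r within each.

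**Figure D2:**
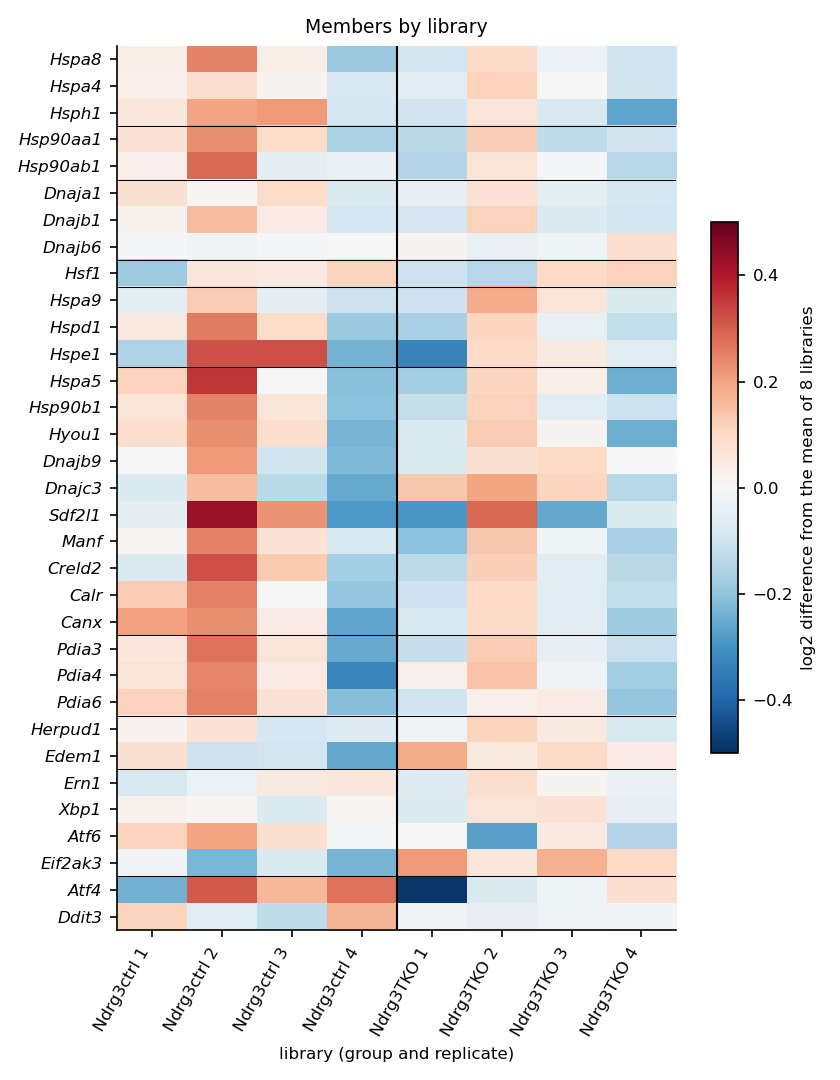
Log2 difference of each library's normalized count from the gene's mean over the 8 libraries (color scale), for the 33 tested members with narrow intervals, in rows grouped by role. The column of Ndrg3ctrl replicate 2 is red and that of Ndrg3ctrl replicate 4 blue through most ER genes, while Eif2ak3 follows the groups.

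What this set shares in sequence was looked for in the RefSeq promoter table (GRCm38.p6), which held 300 bases, 250 before and 50 after the start, for 32 of the 40 members. Hspa8, Hsp90aa1, Hsp90ab1, Hsf1, Hspa9, Hyou1, Manf and Atf6 had no entry. The ERSE, spelled CCAAT, any 9 bases and CCACG and searched on both strands, was found in 7 of the 32 members and in 0.119% of all 32851 promoter entries. Here and below, members are counted once per gene and the shares are over entries, and a gene can have more than 1 entry. The 7 are all ER chaperones or isomerases, and they are printed with 10 bases on each side because the ERSE is the element through which these genes are known to be induced. Capitals mark the fixed letters of the motif.
Hspa5: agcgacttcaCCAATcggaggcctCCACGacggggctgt
Calr: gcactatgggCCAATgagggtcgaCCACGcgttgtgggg
Hsp90b1: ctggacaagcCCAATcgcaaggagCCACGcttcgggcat
Hsp90b1: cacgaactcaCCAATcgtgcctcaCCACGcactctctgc
Canx: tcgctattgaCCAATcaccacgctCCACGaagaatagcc
Pdia6: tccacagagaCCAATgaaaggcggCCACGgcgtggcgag
Dnajc3: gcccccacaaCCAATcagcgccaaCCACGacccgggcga
Creld2: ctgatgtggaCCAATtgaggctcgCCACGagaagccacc
In this order they lie at chr2:34772015-34772053, chr8:84847065-84847103, chr10:86705628-86705666, chr10:86705523-86705561, chr11:50325790-50325828, chr12:17266481-17266519, chr14:118937817-118937855 and chr15:88819510-88819548. The first Hsp90b1 copy and those of Canx and Creld2 are written from the minus strand and the others from the plus strand. Of these 7 genes, 6 had a negative log2 fold change and Dnajc3 a positive one, with none past the threshold. Pdia3, Pdia4, Sdf2l1 and Dnajb9 have promoter entries without these letters and were, like most of the 7, highest in Ndrg3ctrl replicate 2. A match is a run of letters and no evidence of a factor's binding.

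For Hspa5, whose level moved with the other ER genes, the 250 bases before the RefSeq start are shown whole (chr2:34771840-34772089, plus strand), with the same ERSE letters in capitals at positions -65 to -47 from the start.
Hspa5: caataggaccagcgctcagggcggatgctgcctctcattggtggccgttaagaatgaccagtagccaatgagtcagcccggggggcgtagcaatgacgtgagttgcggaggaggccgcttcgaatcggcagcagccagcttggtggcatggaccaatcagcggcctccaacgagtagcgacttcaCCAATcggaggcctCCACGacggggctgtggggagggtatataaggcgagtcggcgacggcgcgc
Shorter motifs were also searched on both strands. The UPR element TGACGTGG was in no promoter of the 32 members and in 0.676% of all entries, and the ATF4 site TGATGCAAT in none and in 0.192%. These counts say only that the letters are not in these windows.

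The pair of ER-associated degradation genes both had positive values. Edem1, which hands misfolded glycoproteins over for degradation, had 15513, 13680, 13795 and 12304 normalized counts in Ndrg3ctrl and 16725, 15207, 15706 and 15142 in Ndrg3TKO. One control library, replicate 1, lay among the Ndrg3TKO values, and the log2 fold change of 0.18 had the second smallest p of the members (SE 0.0679, unadjusted p = 0.0171) without passing (adjusted p = 0.308). Edem1 was called higher with the replicate number as a block (adjusted p = 0.0116 in that fit). At 246 ± 16.8 TPM in Ndrg3ctrl, Edem1 (chr6:108828641-108859356, plus strand) was among the 4 members with the highest levels. Herpud1, a membrane protein that assembles the degradation machinery, was at 0.031 (SE 0.0573, adjusted p = 0.947). Its promoter held the ERSE-II, spelled ATTGG, any 1 base and CCACG, which 0.0365% of all entries hold and no other member did, at chr8:94386367-94386397 with flanks (plus strand, motif letters in capitals).
Herpud1: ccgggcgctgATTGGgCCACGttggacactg

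In the cytosol, constitutive chaperones were the most abundant members and none passed the threshold. Hsp90ab1, the constitutive HSP90, was at 997 ± 68.1 TPM in Ndrg3ctrl and 940 ± 51.3 in Ndrg3TKO, followed by Hspa8, the constitutive HSP70, at 614 ± 37.7 and 600 ± 20.4 (SD, n = 4). Their log2 fold changes were -0.12 (adjusted p = 0.644) and -0.068 (adjusted p = 0.821), and both differences of the means were smaller than the SD of the control libraries. Without Ndrg3ctrl replicate 2, the log2 fold changes were -0.039 and 0.0059. Hsph1 (HSP110), an exchange factor of HSP70, had 1385, 1527, 1542 and 1253 normalized counts in Ndrg3ctrl and 1241, 1390, 1262 and 1108 in Ndrg3TKO. Its groups overlapped through replicates 1 and 4 of the controls, and the log2 fold change of -0.19 had an unadjusted p of 0.0313 and an adjusted p of 0.398. Hsph1 was called lower with the replicate number as a block (adjusted p = 0.0303 in that fit). Hsp90aa1, the inducible HSP90, was at -0.12 (adjusted p = 0.632) and Hspa4 at -0.018 (adjusted p = 0.941). The value of Hsp90aa1 ran from -0.19 to -0.065 with single libraries left out. The J proteins Dnaja1, Dnajb1 and Dnajb6 lay at -0.051, -0.062 and 0.019, and Dnajb1 ran from -0.11 to -0.023 with single libraries left out. Hsf1, which drives the heat shock genes, had 1463 to 1795 normalized counts in Ndrg3ctrl and 1505 to 1799 in Ndrg3TKO (log2 fold change -0.015, adjusted p = 0.967). Reads of Hspa8 and Hsp90aa1 are less certain than these values show, since 39.4% and 47.5% of their 50-base stretches recur in other annotated genes. The same limit holds for Dnaja1 and Dnajb6, with at least 20.6% each.

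**Figure D3:**
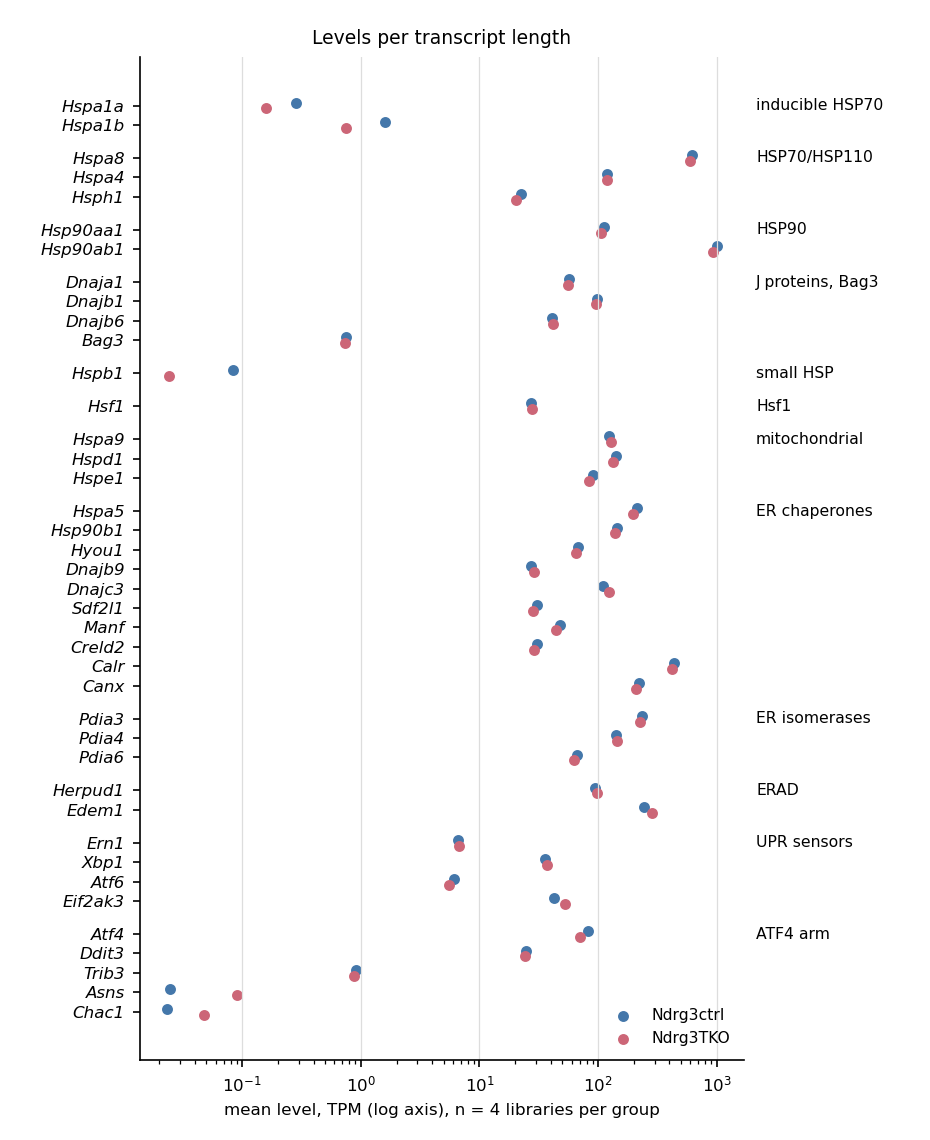
Mean level in TPM (log x axis) of all 40 members by role, with Ndrg3ctrl in blue and Ndrg3TKO in red (n = 4 libraries per group). Levels run from under 0.1 TPM for Hspb1, Asns and Chac1 to 997 TPM for Hsp90ab1, and the colors are apart mainly for members under 2 TPM.

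The stress-inducible HSP70 pair was near silent and uneven. Hspa1a (chr17:34969190-34972156, minus strand) had raw counts of 0, 2, 23 and 3 in Ndrg3ctrl and 0, 4, 9 and 4 in Ndrg3TKO, and was not tested. Hspa1b (chr17:34956436-34959238, minus strand) had 8.73, 31.3, 111 and 4.23 normalized counts in Ndrg3ctrl and 4.80, 14.5, 39.6 and 11.6 in Ndrg3TKO. Replicate 3 was the highest library of each group for both genes, and the 2 groups overlapped. The log2 fold change of Hspa1b was -1.16 with an SE of 1.07 (adjusted p = 0.758), and without Ndrg3ctrl replicate 3 it was 0.36. The genes share 58.8% and 62.3% of their 50-base stretches with each other, so their counts cannot be fully told apart. Across libraries they were correlated (r = 0.911, rho = 0.731, exact permutation p adjusted over 6 pairs 0.00923 and 0.0970), but r was 0.397 without Ndrg3ctrl replicate 3 and Ndrg3TKO replicate 3, so the relation rests on those libraries. No correlation past 0.05 was found for Hspa1a with the co-induced Dnajb1 (r = 0.114, rho = 0.120, exact permutation adjusted p 0.798 and 0.779) or with the immediate-early gene Fos (r = 0.394, rho = 0.443, exact permutation adjusted p 0.548 and 0.335). Atf4 and its target Asns gave r = 0.162 and rho = 0.439 (exact permutation adjusted p 0.798 and 0.335). Since Asns lies near the floor in nearly every library, these values cannot show whether Atf4 and Asns vary together. Without those same replicate 3 libraries, r of Hspa1a was 0.218 with Dnajb1 and -0.027 with Fos, and r of Atf4 with Asns was 0.187 without Ndrg3TKO replicate 1 and Ndrg3ctrl replicate 2. Bag3, another exchange factor induced by stress, had 8.47 to 22.8 normalized counts (log2 fold change -0.070, SE 0.323, adjusted p = 0.962), and the small heat shock protein Hspb1 had at most 3 raw counts.

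None of the 3 mitochondrial chaperones passed the threshold. Hspa9 (mortalin), which pulls proteins into the matrix, was at 0.039 (SE 0.0692, adjusted p = 0.887). Hspd1 (HSP60) and Hspe1 (HSP10), the chamber and lid of the matrix folding machine, were at -0.11 and -0.14 (SE 0.0855 and 0.145, adjusted p = 0.695 and 0.787), and 42.1% and 22.8% of their 50-base stretches recur in other annotated genes. Hspd1 and Hspe1 are divergent neighbours whose RefSeq start sites lie 216 bases apart, so their promoter windows share 285 bases. That shared stretch holds heat shock element letters (GAA, TTC and GAA with any 2 bases between them, searched on both strands), as 2 overlapping matches that make 1 site of alternating triplets, shown in capitals for the plus strand at chr1:55088049-55088086.
Hspe1: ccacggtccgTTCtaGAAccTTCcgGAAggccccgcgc
The same letters were found in the promoters of Dnajb6 and Hsph1, making 4 of 32 members, and in 0.603% of all entries. The log2 fold changes of these 4 members ran from -0.19 to 0.019, with none past the threshold.

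Over all 36 tested members, 27 had a negative log2 fold change (75.0%), against 51.2% of all tested genes, and the median was -0.074 against -0.0033. Both values moved with single libraries. Without Ndrg3ctrl replicate 2, the library highest in ER chaperones, 22 of 36 were negative (61.1%) and the median was -0.022. Without Ndrg3ctrl replicate 4, the lowest, the median was -0.17. With a term for libraries with Y-linked transcripts, 32 of 36 were negative (88.9%) and the median was -0.13, and Eif2ak3 was again the 1 member called, where 2.99% of all tested genes were. Across 9 cytosolic members (Hspa8, Hspa4, Hsph1, both HSP90 genes, the 3 J proteins and Bag3, with Hspa1b left out), the median log2 difference from the 8-library mean was 0.024, 0.20, 0.042 and -0.086 in Ndrg3ctrl and -0.083, 0.071, -0.030 and -0.098 in Ndrg3TKO. Ndrg3ctrl replicate 2 was again the highest library. Ndrg3TKO replicates 2 and 3, which also hold Y-linked transcripts, were the highest of their group.

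Beyond the 40 members, 150 further genes were followed in 10 lists, 9 of chaperone and stress response genes and 1 of immediate-early genes, of which 149 have a row and 141 were tested. None was called higher and 1 lower, where 0.793% and 0.355% of all tested genes were. That gene was Egr1, an immediate-early transcription factor of receptor signaling. Egr1 had 6196, 6854, 5780 and 5230 normalized counts in Ndrg3ctrl and 4921, 4475, 4687 and 3816 in Ndrg3TKO. The groups did not overlap, and Egr1 fell by 0.43 on the log2 scale (SE 0.0889, edgeR adjusted p = 0.0422), a call that was lost without Ndrg3ctrl replicate 1 (0.134), 2 (0.0683) or 3 (0.0932) or Ndrg3TKO replicate 2 (0.0940), 3 (0.0833) or 4 (0.0789), while the log2 fold change stayed between -0.49 and -0.36. Of the 13 immediate-early genes, 10 had negative values, with a median of -0.13. An unadjusted edgeR p under 0.05 was reached by 4 of the 13, Egr1 among them, where 10.9% of all tested genes reached it.

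The list of other ATF4 targets, which holds transfer RNA synthetases, amino acid enzymes and transporters, transcription factors such as Atf5 and Cebpb and stress regulators such as Ddit4, had no call. Of 23 tested, 17 had negative values, with a median of -0.072. Cars, the cysteinyl-tRNA synthetase, had 886, 927, 1000 and 933 normalized counts in Ndrg3ctrl and 807, 786, 778 and 806 in Ndrg3TKO. These groups did not overlap, and the log2 fold change of -0.24 (SE 0.0611) had an adjusted p of 0.0951 in edgeR and 0.0285 in DESeq2. Iars, the isoleucyl-tRNA synthetase, did not overlap either, at -0.13 (SE 0.0483, adjusted p = 0.295). Of the 18 UPR and integrated stress response regulators, none passed, 9 were negative and the median was -0.0020. The lowest p there belonged to Eif2ak4 (GCN2), the eIF2 alpha kinase that senses amino acid lack, at 0.18 (adjusted p = 0.482), and to Mbtps2, the protease that releases Atf6, at 0.086 (adjusted p = 0.632). Eif2ak4 ranged from 0.11 to 0.24 with single libraries left out.

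The remaining folding lists held no call. Among 15 tested other ER folding enzymes (median -0.022), Prkcsh, a glucosidase II subunit, was at -0.16 (adjusted p = 0.428) and the thiol oxidase Ero1l at 0.11 (adjusted p = 0.497). Among 13 other degradation genes (median -0.035), Edem2, an Edem1 relative, was at -0.14 with groups that did not overlap (SE 0.0588, adjusted p = 0.385), and the mannosidase Man1b1 at -0.074 (adjusted p = 0.638). Unlike Edem1, which had a positive value, Edem2 had a negative one, and the difference between them was not tested. The KDEL receptors, which return escaped chaperones to the ER, were at 0.033 for Kdelr1 and 0.026 for Kdelr2 (adjusted p = 0.901 and 0.922). Of 18 genes listed with the co-chaperones of HSP90 and HSP70 (median -0.027), Hspbp1 was at -0.14 (adjusted p = 0.456). The second heat shock factor Hsf2, which is in this list but is no co-chaperone, was at 0.13 with groups apart (adjusted p = 0.552). Of 14 other HSP70, J and small heat shock proteins (median 0.0055), the ribosome-bound J protein Dnajc2 was at -0.17 with groups apart (adjusted p = 0.272) and Dnaja4 at 0.37 (SE 0.199, adjusted p = 0.547), or 0.14 without Ndrg3TKO replicate 3. The TRiC chaperonin and prefoldin, which fold actin and tubulin, had 11 of 14 negative values with a median of -0.063, led by Pfdn6 at -0.22 (adjusted p = 0.531) and Cct6a at -0.12 (adjusted p = 0.584), or -0.13 and -0.055 without Ndrg3ctrl replicate 2. The 11 mitochondrial folding factors and proteases had a median of -0.011, with Clpp at -0.13 (adjusted p = 0.619) and Lonp1 at -0.089 (adjusted p = 0.646). Over all 141, 92 had negative values, where 51.2% of all tested genes did, and 11 an unadjusted p under 0.05, where 10.9% of all tested genes did.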

How the data were processed

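RNA was prepared by the authors from sorted CD8SP thymocytes of Ndrg3ctrl and Ndrg3TKO mice, with 4 biological replicates per group and 1 library per replicate. The authors used cutadapt for trimming, STAR for alignment to GRCm38.p4 with GENCODE M9 and featureCounts for counting per gene, and they deposited raw, whole-number counts, which are not normalized. How strand and reads with several matches were handled is not given in the sources used here. All 8 sample columns were used. Symbols, positions and exonic lengths came from GENCODE M21 (GRCm38.p6) and matched 47224 genes (98.5%).

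Counts were filtered with filterByExpr, scaled by TMM and compared between the 2 groups with the quasi-likelihood test of edgeR 4.0.16 (limma 3.58.1, R 4.3.3), with Benjamini-Hochberg adjustment over 14633 genes and a threshold of 0.05. Adjusted p-values are from this test unless DESeq2 1.42.0 is named. Procedures were tested on simulated data. Normalized counts are each library's counts over its TMM-scaled size, times the mean of the 8 totals, and TPM was computed from counts and exonic length. That length joins all annotated exons of a gene and can exceed that of any single transcript, so the order of genes by TPM is approximate. Correlations used log2 (CPM + 0.5), with scipy 1.17.1 in Python 3.11.15. Total counts per library had medians of 27972527.5 in Ndrg3ctrl and 31022668.5 in Ndrg3TKO. P-values measure the spread between these libraries. No 2 libraries of a group agreed within sampling noise.

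The members and lists were chosen with earlier results of these data known. Named singly were Ndrg3, members past the threshold, the 8 members of smallest p, the 8 of highest TPM, central stress genes of each arm, members failing the filter, and from each wider list the genes past the threshold or, with none, the 2 of smallest p. Marker genes and a few further members were named beside their list. The alternatives covered the test, scaling, filter, replicate block, a Y-linked term and each library left out.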

Additional observations from a re-analysis of the deposited data

Results flagged for a closer look

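In groups of 4 libraries, a library was taken to stand apart when its gap to the nearest other, divided by the range of the group, passed Dixon's 95% limit for 4 values. Of 96 groups looked at, 9 had such a library, where chance gives about 1 in 20, or 4.8.

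A pair of cytosolic chaperones stood apart in the same library. In Ndrg3TKO replicate 2, one of the libraries with Y-linked transcripts, Hsp90aa1 was at 4003 normalized counts and Dnajb1 at 2887, each above the other Ndrg3TKO libraries. Hspa1a was at 22.5 normalized counts in Ndrg3ctrl replicate 3, and Xbp1 was at 970, its lowest control value, in the same library. Asns was at 6.22 in Ndrg3TKO replicate 4 and Chac1 at 1.42 in Ndrg3ctrl replicate 2, both from a handful of reads. Cct6a, a subunit of the TRiC chaperonin, was at 5208 in Ndrg3ctrl replicate 2. Eif2ak4 (GCN2) was at 923 in Ndrg3TKO replicate 3, where Y-linked transcripts were also present. The mitochondrial share of counts in Ndrg3ctrl replicate 4 was 0.636%, the same library in which ER chaperones were lowest. The part of any of these in the comparisons was not tested.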

How the results depend on the processing

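Under 15 other settings, 659 of the compared values kept their direction and side of the threshold or moved by less than the limit set, while 39 moved further, 26 changed sign, and 13 values of single genes lost the threshold and 8 gained it with the same direction. The count of members called (1) was 0 with library totals in place of TMM and ran from 0 to 1 when each library was left out. The wider-list count (1) was 3 by DESeq2, 2 with no filter, 5 with the Y-linked term and 0 to 1 with libraries left out. All genes called (168) numbered 309 by DESeq2, 274 with no filter, 437 with the Y-linked term and 90 to 158 with libraries left out. The members' median ranged from -0.17 to -0.022 with libraries left out. Values near 0 changed sign: with the Y-linked term Xbp1 was -0.0083, Ern1 -0.0096, Kdelr1 -0.0039 and Kdelr2 -0.0049. With libraries left out, Hspa8 ranged from -0.14 to 0.0059, Pdia3 from -0.17 to 0.0029, Pdia4 from -0.12 to 0.061, Hspa1b from -1.91 to 0.36, Hsf1 from -0.074 to 0.030, Xbp1 from -0.0078 to 0.038, Ern1 from -0.027 to 0.024, Trib3 from -0.27 to 0.24, Kdelr1 from -0.016 to 0.070 and Kdelr2 from -0.012 to 0.063. The correlation of Hspa1a and Hspa1b was 0.397, and that of Hspa1a and Fos -0.027, without the 2 farthest libraries, and that of Atf4 and Asns 0.435 with group means removed. The cause was not tested.

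The groups share replicate numbers 1 to 4, but same-numbered libraries deviated together in 3 of 4 pairs only (r = 0.240, 0.512, -0.057 and 0.387), so a shared number was not taken as a pairing. Replicate 3 of each group correlated best with a library of another number. Its libraries also differ in Y-linked transcripts (0.0681 CPM in Ndrg3ctrl, 416.3 in Ndrg3TKO), unlike those of the other numbers. The part of that difference in r was not tested. With the number as a replicate block, 5 members were called, 3 higher (Eif2ak3, Edem1, Dnajc3) and 2 lower (Atf4, Hsph1), with 8 wider-list genes and 800 of all genes (5.47%, 2.97% higher and 2.49% lower). Depth limits Hspa1a, Hspb1, Asns and Chac1, whose counts lie near the floor.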

Other observations

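The 40 members together took 0.496% to 0.591% of all counts in a library. The shares were 0.552%, 0.591%, 0.544% and 0.496% in Ndrg3ctrl replicates 1 to 4 and 0.515%, 0.557%, 0.541% and 0.510% in Ndrg3TKO. Ndrg3ctrl held both the highest and the lowest library.

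Among ER genes, the coefficient of variation between the 4 libraries of a group was 21.5% in Ndrg3ctrl and 19.3% in Ndrg3TKO for Sdf2l1, a partner of ER J proteins, and 16.4% and 11.4% for Hspa5.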
